A study of Mus musculus with 8 samples.

Results

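The genes described here are 5 markers of the mesothelium (*Wt1*, *Msln*, *Upk3b*, *Upk1b* and *Lrrn4*), 4 keratins of simple epithelia (*Krt7*, *Krt8*, *Krt18* and *Krt19*) and the epithelial adhesion molecule gene *Epcam*. They were taken by symbol from the count table, where all 10 were found among 54532 entries. The libraries come from primary lung fibroblasts (pFBs) that grew out of minced lungs of female mice on a C57/black background and were cultured in DMEM with 10% FBS to passages 3 to 7. WT cells were compared with HOMO cells, which came from transgenic mice homozygous for a CRISPR/Cas9 knock-in that expresses human IGFBP5 (hIGFBP5) ubiquitously, so that the transgene is not restricted to the fibroblast. IGFBP5 is a secreted insulin-like growth factor binding protein that has been tied to lung fibrosis, and the comparison asks what the pFB transcriptome looks like when it is expressed throughout the animal. There were 4 WT and 4 HOMO libraries, named after their labels as WT1 to WT4 and HOMO1 to HOMO4, and *Wt1* in italics always means the gene. The ages and the number of mice are not given in the sources used here. The study's text speaks of the HOMO libraries as coming from different mice, but which mouse or culture each library came from is not given, so p-values measure the spread between these libraries, which may be partly technical.

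The mesothelium is the flat cell layer that lines the pleura and covers the lung. It is an epithelium of mesodermal origin, and its cells hold simple keratins as well as the vimentin of mesenchymal cells. Keratin filaments are built from pairs of 1 type I and 1 type II chain. In simple epithelia the type II chains are keratin 7 and keratin 8 and the type I chains are keratin 18 and keratin 19. Fibroblasts have little of any of them, and EpCAM, which joins epithelial cells to one another, is a usual marker for telling epithelial from mesothelial cells and fibroblasts.

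The promoters of *Krt8*, *Krt18* and *Epcam* are shown first. *Krt8* and *Krt18* encode filament partners, and their genes lie side by side. *Epcam* was highest in HOMO4, as *Krt8* was and *Krt18* was not. RefSeq promoter sequences on GRCm38.p6, with 250 bases before and 50 after the gene start, were at hand for 6 of the 10 genes (*Lrrn4*, *Upk3b*, *Krt7*, *Krt8*, *Krt18* and *Epcam*). Capitals mark matches on either strand to any of 4 motifs, which were the TATA box TATAAA, the GC box GGGCGG bound by Sp factors, the element GCGNGGGCG bound by WT1 and EGR factors, and the E-box CACCTG bound by the Snail and Zeb repressors of epithelial genes. Each sequence is read 5′ to 3′ in the direction of the gene.
*Krt8* (chr15:102004293-102004592, reverse strand): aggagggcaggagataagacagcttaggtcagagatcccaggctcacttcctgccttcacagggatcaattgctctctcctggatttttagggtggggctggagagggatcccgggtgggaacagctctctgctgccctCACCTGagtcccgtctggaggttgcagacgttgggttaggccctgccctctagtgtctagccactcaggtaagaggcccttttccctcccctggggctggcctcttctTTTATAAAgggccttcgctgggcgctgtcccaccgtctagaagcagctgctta
*Krt18* (chr15:102027966-102028265, forward strand): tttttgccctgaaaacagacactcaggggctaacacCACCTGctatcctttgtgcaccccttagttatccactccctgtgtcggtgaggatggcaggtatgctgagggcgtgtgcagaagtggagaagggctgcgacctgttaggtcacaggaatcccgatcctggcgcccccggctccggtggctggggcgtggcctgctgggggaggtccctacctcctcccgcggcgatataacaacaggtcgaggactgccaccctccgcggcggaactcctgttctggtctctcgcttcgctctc
*Epcam* (chr17:87635729-87636028, forward strand): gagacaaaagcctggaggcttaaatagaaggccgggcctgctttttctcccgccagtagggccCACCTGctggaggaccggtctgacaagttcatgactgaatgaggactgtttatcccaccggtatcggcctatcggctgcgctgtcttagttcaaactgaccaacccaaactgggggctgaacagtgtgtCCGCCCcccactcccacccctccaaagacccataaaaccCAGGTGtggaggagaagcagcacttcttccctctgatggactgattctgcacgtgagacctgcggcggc
CACCTG was found in 4 of the 6 promoters (*Krt7*, *Krt8*, *Krt18* and *Epcam*) and in 20.2% of all 32851 promoters searched. It stood at −111 in *Krt8*, at −214 in *Krt18*, and in *Epcam* at −187 and, on the other strand, at −19. TATAAA was found in *Krt8* only, as overlapping matches on the 2 strands at −3 and −1, and in 13.6% of all promoters. GGGCGG was found in *Krt7* (4 matches) and *Epcam* (1 match) and in 35.7% of all promoters. GCGNGGGCG had no match in these 6 windows and was found in 5.55% of all promoters. A match is a description of the letters and not of binding.

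Between 17236521 and 31987790 reads were counted per library. At these depths, 3 counts corresponded to 0.0908 to 0.172 CPM (counts scaled to the library size after edgeR's TMM method), a floor that covers counting error only. Some libraries were nearly the same. The biological coefficient of variation was 7.65% between WT1 and WT2, 4.71% between HOMO1 and HOMO2 and 5.07% between HOMO3 and HOMO4, while it was 30.0 to 56.4% in all other pairs within a genotype. These near-identical pairs differed by more than counting noise and were kept as separate libraries. Results with each pair summed are given for all genes together and for some of the named genes. Of 14150 genes tested by edgeR's quasi-likelihood test, 1716 (12.1%) were DEGs, with a Benjamini-Hochberg adjusted p below 0.05 and a log2 fold change beyond 0.6 in either direction. Upregulated DEGs were 5.94% and downregulated DEGs 6.18% of all tested genes, and the genotypes did not overlap in 27.3%. With each near-identical pair summed, the units were WT1 with WT2, WT3 and WT4 against HOMO1 with HOMO2 and HOMO3 with HOMO4. In that fit, 0 of 16130 tested genes were DEGs in edgeR, while 2057 had an unadjusted p under 0.05. No edgeR call below therefore remained with the pairs summed. As that fit has fewer units, a call lost in it does not show that a gene was unchanged. The calls of DESeq2 and limma-voom given below were not refitted with summed pairs.

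The label of these cells was checked against marker lists. The summed level of 10 fibroblast genes, *Col1a1*, *Col1a2* and *Fn1* among them, was 16741 to 23296 CPM in WT and 17959 to 30259 CPM in HOMO. That of *Msln*, *Upk3b*, *Upk1b* and *Lrrn4* was 21.9, 23.3, 223 and 145 CPM in WT1 to WT4 and 113, 110, 74.9 and 87.5 CPM in HOMO1 to HOMO4. Mesothelial genes were thus counted in all 8 libraries beside the fibroblast genes. *Calb2*, which encodes calretinin, a classical mesothelial marker, had 0 counts in all 8 libraries. In bulk RNA, fewer cells of a type and less RNA per cell cannot be told apart.

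Of the 10 genes, 8 passed the filter on low counts and *Krt8* and *Epcam* did not. *Wt1* was upregulated in HOMO, and 0 were downregulated in edgeR. An unadjusted p under 0.05 was found for 2 of the 8 (*Wt1* and *Krt19*). With RLE instead of TMM scaling in edgeR, 4559 of all 14150 tested genes had such a p. DESeq2 also called *Wt1* as upregulated (log2 fold change 3.37, adjusted p = 9.29e-07). It called 1, *Krt19*, as downregulated (9.04% of all genes it gave an adjusted p). *Wt1* was also the 1 gene of the 8 in which the genotypes did not overlap. The log2 fold changes were positive in 4 and negative in 4, with a median of −0.13 against −0.04 over all tested genes. At 1 of 8, the share called in edgeR is close to the 12.1% of all genes. Limma-voom with sample weights, which gave WT2 the most weight (8.14) and WT3 and WT4 the least (0.0927 and 0.164), called 7 of the 8, 6 as upregulated and *Krt19* as downregulated. It called 25.3% of all genes, 14.2% as upregulated and 11.1% as downregulated. The calls therefore differ between these fits, and the genes are described one by one.

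**Figure D1:**
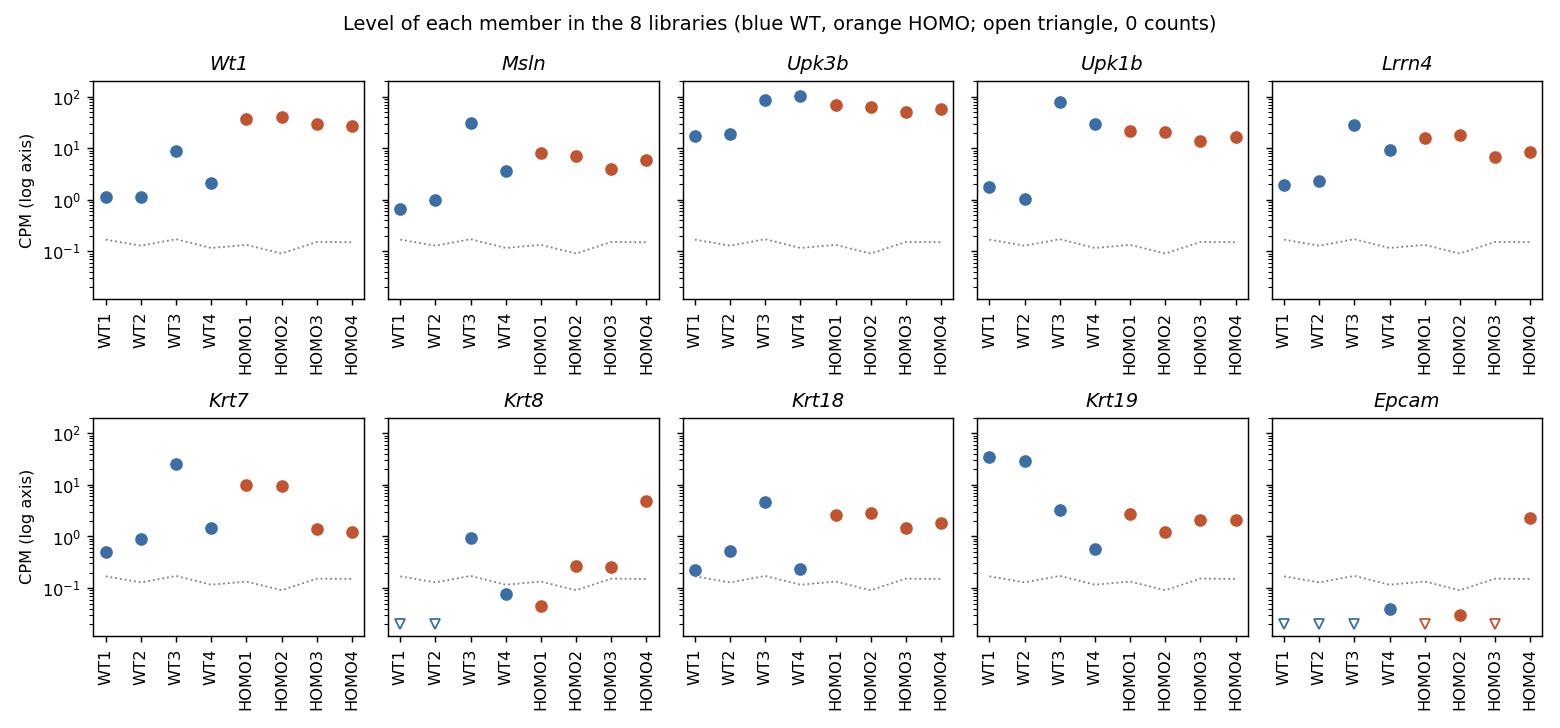
Level of each of the 10 genes in CPM (log axis) in the 8 libraries, blue for WT and orange for HOMO. The dotted line is the level of 3 counts and open triangles mark 0 counts. *Wt1* is the 1 tested gene with all HOMO points above all WT points, and *Krt8* and *Epcam* rise above the floor mainly in HOMO4.

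*Wt1* (chromosome 2 from 105126529 to 105173616, forward strand, GRCm38) encodes the zinc finger transcription factor WT1, which marks the mesothelium from the embryo on. It had 20, 26, 151 and 55 counts in WT1 to WT4 against 826, 1342, 572 and 534 in HOMO1 to HOMO4, which are levels of 1.13, 1.12, 8.66 and 2.13 CPM against 36.8, 40.6, 29.0 and 26.8 CPM. Every HOMO library was above every WT library, and the lowest HOMO library was HOMO4. The mean level was 3.26 ± 3.64 CPM in WT (SD, n = 4) and 33.3 ± 6.50 CPM in HOMO (SD, n = 4), a 10.2-fold difference of the means. HOMO exceeded WT by a log2 fold change of 3.36 with a standard error of 0.67 (edgeR adjusted p = 0.0166). This value ranged from 3.07 to 4.49 with each library left out in turn. The call was lost without HOMO1 (3.32, adjusted p = 0.0535) and without HOMO2 (3.26, adjusted p = 0.0556). With the near-identical pairs summed, the log2 fold change was 3.12 (adjusted p = 0.298).

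The antisense gene *Wt1os* starts 18 bases from *Wt1* and shares no exon bases with it. It had 0, 2, 1 and 1 counts in WT1 to WT4 against 9, 15, 9 and 5 in HOMO1 to HOMO4. These counts did not overlap either, at a level too low for the edgeR test (two-sided exact permutation p = 0.0286, the smallest that 70 assignments can give). Whether the counting used strand is not given in the sources used here. As the 2 genes share no exon bases, reads within their annotated exons are told apart by position.

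*Msln* (chromosome 17 from 25748613 to 25754378) encodes mesothelin, a surface glycoprotein of mesothelial cells. It had 12, 23, 534 and 94 counts in WT1 to WT4 against 179, 230, 79 and 119 in HOMO1 to HOMO4. WT3 was the highest of all 8 libraries and WT1 the lowest, and the HOMO libraries all lay between WT4 and WT3 in CPM. The mean was 8.99 ± 14.5 CPM in WT (SD, n = 4) and 6.23 ± 1.69 CPM in HOMO (SD, n = 4). This difference did not pass (log2 fold change −0.52 ± 1.05, standard error, edgeR adjusted p = 0.767).

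*Upk3b* (chromosome 5 from 136038496 to 136046487) encodes uroplakin 3B, a membrane protein known from the urothelium and also made by mesothelial cells. It had 312, 441, 1473 and 2644 counts in WT1 to WT4 against 1515, 2111, 993 and 1130 in HOMO1 to HOMO4. The HOMO libraries lay within 1.34-fold of one another, while the WT libraries spanned 5.83-fold, with WT1 and WT2 below and WT3 and WT4 above every HOMO library. The log2 fold change of 0.09 ± 0.55 (standard error) did not pass (edgeR adjusted p = 0.928), from a mean of 55.8 ± 44.0 CPM in WT and 59.6 ± 7.66 CPM in HOMO (SD, n = 4 each).

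*Upk1b* (chromosome 16 from 38773184 to 38800328) encodes the tetraspanin uroplakin 1B. Its counts were 32, 24, 1381 and 774 in WT1 to WT4 and 491, 685, 272 and 331 in HOMO1 to HOMO4. It had the widest spread of the 8 tested genes in WT, 77.0-fold between WT2 and WT3, against 1.59-fold in HOMO. It did not pass, since the edgeR adjusted p was 0.732 at a log2 difference of −0.62 ± 1.08 (standard error).

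*Lrrn4* (chromosome 2 from 132868305 to 132880891) encodes a leucine-rich repeat membrane protein found in mesothelial cells. It had 34, 54, 493 and 237 counts in WT1 to WT4 against 347, 594, 133 and 165 in HOMO1 to HOMO4. The WT libraries again ran from below to above all HOMO libraries, and HOMO1 and HOMO2 stood above HOMO3 and HOMO4. *Lrrn4* did not pass either (log2 fold change 0.22 ± 0.80, standard error, edgeR adjusted p = 0.878).

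The 4 surface genes thus had an order in common. WT1 and WT2 were the lowest of the 8 libraries in each of them, as they were in *Wt1*. WT3 was the highest of all libraries in *Msln*, *Upk1b* and *Lrrn4*, but only the highest WT library in *Wt1*, below every HOMO library. Without WT3, the log2 fold changes were 1.80 for *Msln*, 0.36 for *Upk3b*, 0.73 for *Upk1b* and 1.43 for *Lrrn4*, and none of the 4 was a DEG. In limma-voom with sample weights, all 4 were called as upregulated, at 2.56 for *Msln*, 1.57 for *Upk3b*, 3.76 for *Upk1b* and 2.12 for *Lrrn4* (adjusted p from 9.47e-05 to 0.00154), so the direction of *Msln* and *Upk1b* turned. A summed level of 7 macrophage and leukocyte genes was also higher in WT3 and WT4 (1924 and 1119 CPM) than in WT1 and WT2 (129 and 156 CPM) or in HOMO (56.7 to 186 CPM). *Lyz2* made up most of this sum, at 1707 CPM in WT3 and 912 CPM in WT4. *Ptprc*, *Cd68*, *Adgre1*, *Csf1r* and *Itgam* were also highest in WT3 and WT4. *Cd14* was highest in WT3, but lower in WT4 (20.9 CPM) than in HOMO (28.8 to 37.7 CPM). In edgeR, 0 of these 7 genes were DEGs and 4 had an unadjusted p under 0.05. With RLE scaling, 4559 of all 14150 tested genes had such a p. None of the 7 was at 0 in all libraries, and their part in the WT spread was not tested. Of 6 smooth muscle and pericyte genes, the summed level was 824 to 2696 CPM in WT, highest in WT3, and 257 to 1458 CPM in HOMO. *Rgs5*, a pericyte gene, was the 1 downregulated DEG of those 6 (log2 fold change −5.20, edgeR adjusted p = 0.0486), and it stayed so only without WT3 when libraries were left out in turn (adjusted p up to 0.142). Of all tested genes, 6.18% were downregulated DEGs.

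**Figure D2:**
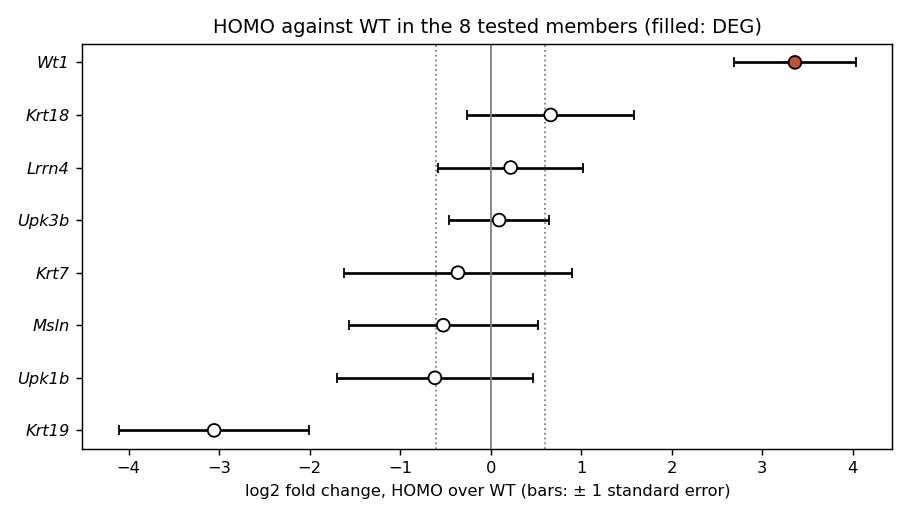
Log2 fold change of HOMO over WT for the 8 tested genes, with bars of 1 standard error. Dotted lines stand at the fold change threshold of 0.6 in each direction. *Wt1* at 3.36 is the filled point, the 1 DEG, and *Krt19* at −3.06 lies as far on the other side without passing the adjusted p.

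Further mesothelial genes were taken from a list of 12, of which 10 were tested, 2 were upregulated, 3 were downregulated and 5 did not pass, with a median log2 fold change of 0.40. *Bnc1*, which encodes the zinc finger protein basonuclin 1, was counted 840, 1230, 281 and 1768 times in WT and 3786, 5618, 2668 and 2788 times in HOMO. It rose without overlap (log2 fold change 1.73, standard error 0.37, edgeR adjusted p = 0.0219). *Podxl*, which encodes the sialomucin podocalyxin and is a target of WT1 in the kidney podocyte, was counted 181, 241, 5 and 297 times in WT and 1858, 2647, 1774 and 1618 times in HOMO. It rose (log2 fold change 3.36, standard error 0.75, edgeR adjusted p = 0.0242), and WT3, the WT library with the most *Wt1*, had the least *Podxl*. A link between *Wt1* and *Podxl* was not tested.

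*Aldh1a2*, the retinoic acid synthesis enzyme of the embryonic mesothelium, moved the other way from *Wt1*. It was counted 3589, 4800, 177 and 1042 times in WT and 5, 7, 26 and 3 times in HOMO (log2 fold change −7.96, standard error 1.23, edgeR adjusted p = 0.00729). *Nkain4* (−1.34, standard error 0.38, edgeR adjusted p = 0.0484) and *Pdpn*, which encodes podoplanin (−1.08, standard error 0.27, edgeR adjusted p = 0.0343), fell as well. The direction of this list was therefore not the same for all its genes that passed. With the near-identical pairs summed, *Aldh1a2* was no longer a DEG (log2 fold change −7.51, edgeR adjusted p = 0.246). With each library left out in turn, it stayed a DEG in all 8 fits. *Bnc1* was lost without HOMO1 or HOMO2 (adjusted p up to 0.0707), *Podxl* without WT2 or any HOMO library (up to 0.0700), *Pdpn* without any HOMO library (up to 0.108), and *Nkain4* without WT1, WT2 or any HOMO library (up to 0.122).

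Among the genes of that list that did not pass, *Rspo1*, which encodes an R-spondin that amplifies Wnt signals, had 0 counts in WT1 and WT2, 158 in WT3 and 25 in WT4, and 234, 360, 130 and 136 in HOMO1 to HOMO4 (edgeR adjusted p = 0.389). *Gpm6a*, a membrane glycoprotein gene, had a log2 fold change of 1.70 (edgeR adjusted p = 0.0927). *Muc16*, the gene of the CA125 mucin, was counted 0, 1, 44 and 3 times in WT and 16, 5, 9 and 8 times in HOMO and was not tested. WT3 was thus the highest library for *Muc16* too, and the highest WT library for *Rspo1* and *Gpm6a*. Of the remaining uroplakins, *Upk1a* was tested and did not pass, *Upk2* had 7 counts in WT4 and none elsewhere, and *Upk3a* had 0 counts in every library. The 2 uroplakins counted in quantity were therefore those known from mesothelium.

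**Figure D3:**
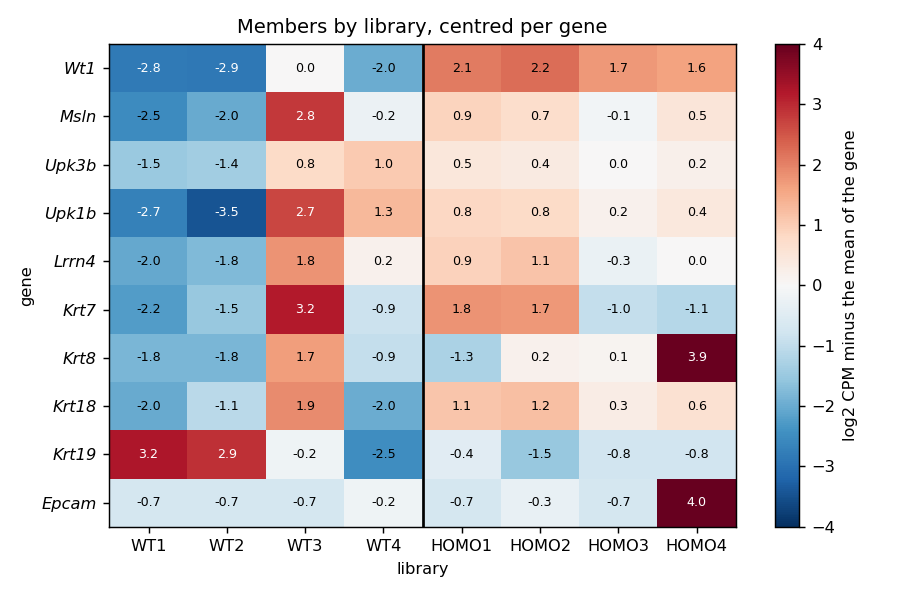
Log2 CPM of each gene minus its own mean over the 8 libraries, in rows by gene and columns by library, with WT left of the black line. *Msln*, *Upk3b*, *Upk1b* and *Lrrn4* are lowest in WT1 and WT2 where *Krt19* is highest, and *Krt8* and *Epcam* are highest in HOMO4.

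*Krt19* (chromosome 11 from 100140810 to 100148665, reverse strand) encodes the smallest type I keratin. It had 630, 663, 57 and 15 counts in WT1 to WT4 against 60, 41, 42 and 42 in HOMO1 to HOMO4. WT1 and WT2 stood apart at 35.4 and 28.4 CPM, while WT3 (3.27 CPM) was above and WT4 (0.581 CPM) below all HOMO libraries (1.24 to 2.67 CPM), so the genotypes overlapped. The mean was 16.9 ± 17.6 CPM in WT and 2.04 ± 0.593 CPM in HOMO (SD, n = 4 each). The log2 fold change of −3.06 (standard error 1.05) did not pass (edgeR adjusted p = 0.0856). It passed in DESeq2 (−3.06, adjusted p = 0.00469), in limma-voom with sample weights (−3.78, adjusted p = 0.00734) and, in edgeR, without WT4 (−3.46, adjusted p = 0.0235). With WT1 and WT2 summed, as well as the HOMO pairs, it was −2.58 (adjusted p = 0.499).

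*Krt18* (chromosome 15 from 102028180 to 102032027, forward strand), the type I partner of keratin 8, had 4, 12, 81 and 6 counts in WT1 to WT4 against 59, 93, 29 and 37 in HOMO1 to HOMO4. WT3 was again the highest library, and the other 3 WT libraries were below all HOMO libraries. Its log2 fold change of 0.66 ± 0.92 (standard error) did not pass (edgeR adjusted p = 0.655). *Krt18* was a DEG without WT3 (log2 fold change 2.73, edgeR adjusted p = 0.00862) and in limma-voom with sample weights (2.12, adjusted p = 0.00112).

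*Krt7* (chromosome 15 from 101411043 to 101430313, forward strand) encodes the type II keratin of glandular and mesothelial cells. It had 9, 21, 440 and 38 counts in WT1 to WT4 against 219, 310, 27 and 24 in HOMO1 to HOMO4. It was the 1 tested gene of these with a wide spread in HOMO too, 8.11-fold, with HOMO1 and HOMO2 at 9.76 and 9.38 CPM and HOMO3 and HOMO4 at 1.37 and 1.20 CPM. Its log2 fold change of −0.36 ± 1.26 (standard error) did not pass (edgeR adjusted p = 0.873), and it was 2.48 without WT3 (edgeR adjusted p = 0.0929) and 1.68 in limma-voom with sample weights (adjusted p = 0.0856). *Krt7* shares 77 exon bases, 1.09% of its own, with *Gm671* on the opposite strand, which had 2 counts in HOMO3 and none elsewhere.

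*Krt8* (chromosome 15 from 101996698 to 102004482, reverse strand) lies 23697 bases from *Krt18*, and its promoter window holds the TATAAA and CACCTG matches printed above. It had 0, 0, 16 and 2 counts in WT1 to WT4 against 1, 9, 5 and 96 in HOMO1 to HOMO4. HOMO4 held most of its counts, at 4.81 CPM, while HOMO3, its near-identical partner over all genes, was at 0.253 CPM. The mean in HOMO was 1.35 ± 2.31 CPM (SD, n = 4) with HOMO4 and 0.190 ± 0.126 CPM (SD, n = 3) without it, against 0.249 ± 0.448 CPM (SD, n = 4) in WT. The two-sided exact permutation p was 0.486 with HOMO4 and 0.971 without it. *Krt8* shares 101 exon bases, 5.16% of its own, with *Gm36026* on the opposite strand, which had 0 counts in every library.

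*Epcam* (chromosome 17 from 87635979 to 87651129, forward strand) was counted 1 time in WT4, 1 time in HOMO2 and 45 times in HOMO4, and had 0 counts in the other 5 libraries. Apart from HOMO4, at 2.26 CPM, every library was below the floor of 3 counts. The two-sided exact permutation p was 0.714 with HOMO4 and 1 without it.

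Per exon length, the keratins differed in which chain type was in excess. In RPKM, which is the CPM per kilobase of exon, the level of *Krt18* and *Krt19* together was 268 times that of *Krt7* and *Krt8* together in WT1 and 123 times in WT2. The ratio was 1.23 in WT3, 1.91 in WT4, and 2.32, 1.79, 6.71 and 0.923 in HOMO1 to HOMO4. Type I was therefore in excess in 7 of 8 libraries, and WT1 and WT2 stood far apart from the rest. *Krt19* made up 98.8 and 96.9% of the summed RPKM of the 4 keratins in WT1 and WT2 and 16.3 to 46.0% in the other 6 libraries.

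*Krt7* made up 60.0 to 100% of the type II level in 7 libraries and 6.49% in HOMO4, where *Krt8* took its place. *Krt8* at 2.46 RPKM exceeded its partner *Krt18* at 1.29 RPKM in HOMO4, and was below *Krt18* in each of the other 7 libraries. In WT3, which had the next highest level of *Krt8*, the values were 0.469 RPKM for *Krt8* and 3.23 RPKM for *Krt18*. These shares are a description with no test.

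**Figure D4:**
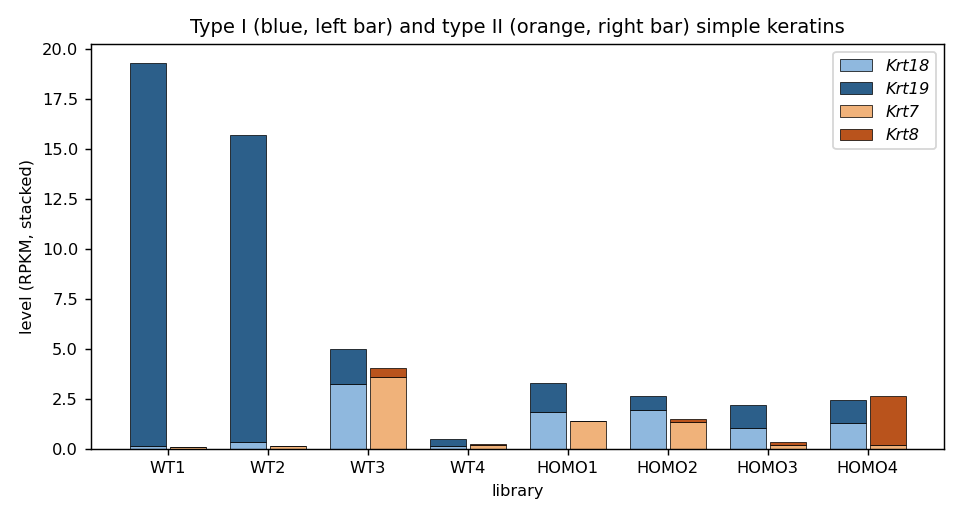
Level in RPKM, stacked by gene, of the type I keratins *Krt18* and *Krt19* (left bar) and the type II keratins *Krt7* and *Krt8* (right bar) in each library. *Krt19* fills the bars of WT1 and WT2, and *Krt8* fills the type II bar of HOMO4 alone.

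The table lists 50 keratin genes beside these 4, of which 29 had 0 counts in every library, 2 were tested and 0 were DEGs. Neither of those 2 had an unadjusted p under 0.05. *Krt80*, a type II keratin, was counted 69, 103, 55 and 277 times in WT and 139, 206, 136 and 133 times in HOMO (log2 fold change 0.22, edgeR adjusted p = 0.723). *Krt10*, a keratin of the upper epidermis, was counted 23, 23, 31 and 25 times in WT and 50, 56, 37 and 36 times in HOMO (0.60, edgeR adjusted p = 0.205). *Krt13*, of stratified mucosa, was counted 106 and 119 times in WT1 and WT2 and at most 4 times in any other library, so it was high in the same 2 libraries as *Krt19* (two-sided exact permutation p = 0.257). *Krt14*, of basal cells, was counted 0, 0, 2 and 4 times in WT and 50, 35, 13 and 7 times in HOMO, without overlap but below the filter (two-sided exact permutation p = 0.0286). *Krt88* went the other way at the same permutation p, with 3, 1, 2 and 1 counts in WT and 0 in every HOMO library. Both were picked from this family after their counts were seen. Of all tested genes, 27.3% did not overlap between the genotypes.

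*Krt20*, a keratin of the gut lining and the urothelium, had 0, 0, 11 and 1 counts in WT1 to WT4 against 0, 1, 3 and 112 in HOMO1 to HOMO4. It was thus high in HOMO4 like *Krt8* and *Epcam*. *Cldn7*, a tight junction gene, had 24 counts in HOMO4 and at most 2 elsewhere, and *Elf3*, an epithelial transcription factor gene, had 6 counts in HOMO4 and 0 elsewhere. *Cldn4*, another tight junction gene, had 6 counts in HOMO4, 2 in WT4 and 0 elsewhere. *Sftpc*, the surfactant protein C gene of alveolar type II cells, was counted 3 times in HOMO4, and *Scgb1a1*, the secretoglobin of club cells, 1 time.

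These secretory genes were counted mainly in HOMO2 and HOMO3. *Sftpc* had 48 and 99 counts and *Scgb1a1* 110 and 130 counts in HOMO2 and HOMO3, with at most 3 counts of either in any other library. *Sftpa1* had 17 counts in each and *Sftpb* 10 and 15, with at most 1 elsewhere. *Krt8* and *Epcam* were near the floor in both libraries, with 9 and 5 counts of *Krt8* and 1 and 0 of *Epcam*. The near-identical pairs thus did not share these genes, since HOMO1 and HOMO4 had at most 3 counts of each where HOMO2 and HOMO3 had at least 10.

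**Figure D5:**
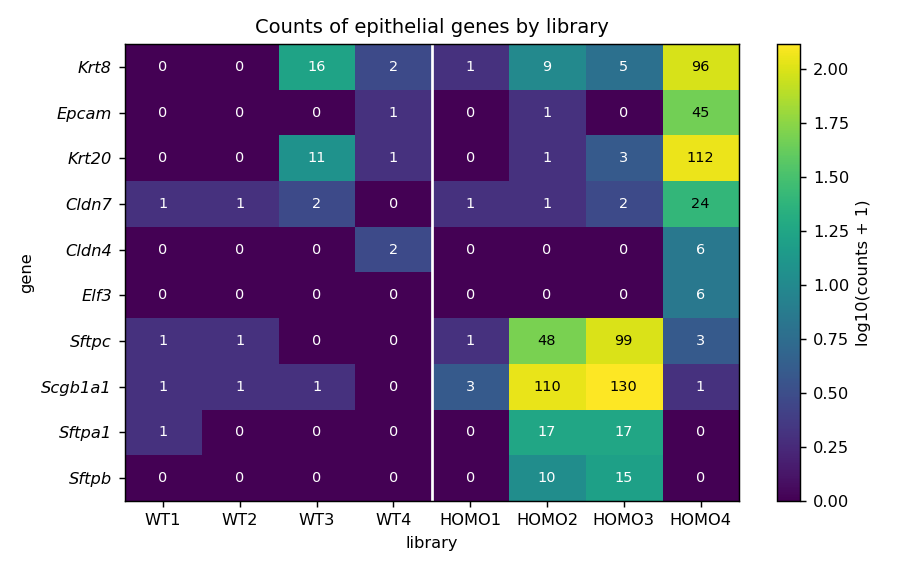
Counts of 10 epithelial genes in the 8 libraries, with the count printed in each cell and the colour giving log10 of the count plus 1. *Krt8*, *Epcam*, *Krt20* and *Cldn7* are highest in HOMO4, and the surfactant genes and *Scgb1a1* in HOMO2 and HOMO3.

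To see what else set HOMO4 apart, the entries with at least 20 counts in a library and a level more than 10 times that of every other library were counted, with the others set to no less than 3 counts. HOMO4 had 36 such entries, WT3 53, WT4 6 and the other 5 libraries 0. *Epcam* was among the 36 of HOMO4. The others included *Reg3b* (685 counts), an antimicrobial lectin gene of the intestine, *Sis* (319), the sucrase-isomaltase of the small intestinal brush border, *Alpi* (179), the intestinal alkaline phosphatase, *Vil1* (109), the villin of microvilli, *Cdh17* (74), the liver-intestine cadherin, and *Fabp2* (72), the intestinal fatty acid binding protein. *Sis*, *Alpi*, *Cdh17* and *Fabp2* had 0 counts in each of the other 7 libraries. These genes were picked after their counts were seen, and their part in the *Krt8* and *Epcam* counts of HOMO4 was not tested. Whether these reads, or the surfactant reads of HOMO2 and HOMO3, came from the cells named in the labels cannot be told from the counts, and the levels of *Krt8* and *Epcam* in HOMO4 carry the same limit.

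Of 18 lung epithelial genes, 5 passed the filter, 2 were upregulated and 0 downregulated in HOMO. Over all tested genes, these shares were 5.94% and 6.18%, and 27.3% did not overlap between the genotypes. *Cdh1*, which encodes E-cadherin, was counted 1, 8, 0 and 13 times in WT and 26, 47, 37 and 44 times in HOMO (log2 fold change 2.77, standard error 0.76, edgeR adjusted p = 0.0462). *Hopx*, a homeodomain gene of alveolar type I cells and other tissues, was counted 6, 16, 6 and 15 times in WT and 61, 87, 127 and 106 times in HOMO (3.10, standard error 0.44, edgeR adjusted p = 0.00557). Both rose in all 4 HOMO libraries, also in HOMO1, where the surfactant genes, *Krt8* and *Epcam* were near the floor. The other 3 tested genes did not pass. *Ager* was higher in HOMO without overlap (log2 fold change 1.27, edgeR adjusted p = 0.0556). *Aqp5* (−0.33, edgeR adjusted p = 0.672) and *Foxj1* (−0.57, edgeR adjusted p = 0.651) had negative log2 fold changes, and their genotypes overlapped. *Hopx* stayed a DEG with each library left out, and *Cdh1* only without WT3 or WT4 (adjusted p up to 0.112). With the near-identical pairs summed, *Hopx* was not a DEG (edgeR adjusted p = 0.205). The call of *Cdh1* was also lost with no filter on low counts (adjusted p = 0.0616). Genes that could have passed only through HOMO are among the 5, so the count is not support for a change of the list.

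A list of 12 genes held partners of keratin filaments in desmosomes and hemidesmosomes and the transcription factor gene *Trp63*. Of these 12 genes, 6 were tested, 0 were upregulated and 2 were downregulated. For this list and those that follow, the share of all tested genes was 12.1% for DEGs and 6.18% for downregulated DEGs. The genotypes did not overlap in 27.3% of all tested genes. *Jup*, which encodes plakoglobin (log2 fold change −0.94, edgeR adjusted p = 0.0249), and *Plec*, which encodes the filament linker plectin (−0.98, edgeR adjusted p = 0.0424), fell. *Vim*, the vimentin filament gene of mesenchymal and mesothelial cells, fell as well (−0.65, edgeR adjusted p = 0.0430) and was the 1 DEG among 4 tested genes for other intermediate filaments. The mean level of *Vim* was 2851 ± 186 CPM in WT and 1817 ± 294 CPM in HOMO (SD, n = 4 each), without overlap. Of 10 fibroblast genes, *Pdgfrb* was the 1 DEG (−0.97, edgeR adjusted p = 0.0251). The study reports *Col1a1* and *Col1a2* as upregulated by DESeq2. In edgeR they did not pass (0.82 and 0.66, adjusted p = 0.0985 and 0.105). With libraries left out in turn, *Plec* (adjusted p up to 0.131) and *Vim* (up to 0.143) stayed DEGs only without WT3. Both were also lost with no filter on low counts (edgeR adjusted p = 0.0524 for *Plec* and 0.107 for *Vim*). *Jup* was lost without any HOMO library (up to 0.0785) and *Pdgfrb* without HOMO1, HOMO2 or HOMO3 (up to 0.0929). Of 5 endothelial genes 1 was tested and did not pass.

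Ordered by the mean RPKM in HOMO, *Upk3b* (16.9 ± 2.17) led *Upk1b* (8.74 ± 1.79), *Wt1* (5.37 ± 1.05), *Lrrn4* (3.26 ± 1.47), *Msln* (2.03 ± 0.553), *Krt18* (1.53 ± 0.443), *Krt19* (1.10 ± 0.320), *Krt7* (0.770 ± 0.679), *Krt8* (0.687 ± 1.18) and *Epcam* (0.260 ± 0.512), with SDs over 4 libraries each. The libraries of *Upk3b* and *Upk1b*, and of *Upk1b* and *Wt1*, did not overlap, and every later neighbour in this order did. In WT, *Wt1* (0.526 ± 0.587 RPKM) came after both uroplakins, *Krt19*, *Msln*, *Lrrn4*, *Krt7* and *Krt18*, and all neighbours in the WT order overlapped. These places in WT rest on WT3, without which the means were 13.1 RPKM for *Upk3b*, 11.6 for *Krt19* and 5.23 for *Upk1b*, with *Wt1* (0.235) in the sixth place instead of the eighth. By library, *Wt1* took places 5 to 8 in WT and the third in each HOMO library. *Krt19* led in WT1 and WT2, *Upk1b* in WT3, and *Upk3b* in WT4 and the 4 HOMO libraries.

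Likeness of patterns was measured as the root mean square (RMS) difference between log2 CPM profiles over the 8 libraries, each centred on its mean. Among these genes, *Msln* and *Lrrn4* were the closest pair (0.49), followed by *Upk3b* and *Lrrn4* (0.63) and *Msln* and *Upk1b* (0.75). *Wt1* was closest to *Krt18* (1.25), farther than the 4 surface genes were from one another (0.49 to 1.11). *Krt19* was at least 2.74 from every other tested gene of the set. No correlation is given because the 8 libraries hold 3 near-identical pairs.

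Over all tested genes, the profile nearest to *Wt1* was that of *Hp*, which encodes haptoglobin (RMS difference 0.24, against a spread of 2.09 for *Wt1* itself), counted 81, 139, 592 and 357 times in WT and 3442, 5540, 2490 and 2877 times in HOMO. The next was *Ramp1*, a receptor activity-modifying protein gene (0.35). *Abi3bp*, an extracellular matrix protein gene, was nearest to *Msln* (0.45) and second nearest to *Lrrn4* (0.34). It was counted 172, 346, 3385 and 1991 times in WT and 1940, 2646, 1108 and 1444 times in HOMO, the same low WT1 and WT2 and high WT3 as in the surface genes. *Wnt5a*, a Wnt ligand gene, was second nearest to *Msln* (0.54).

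For *Upk3b* the nearest were *Syngr1* (0.18) and *Aph1c* (0.23), for *Upk1b* *1700030C10Rik* (0.49) and *Megf6* (0.61), and for *Lrrn4* *Gm16845* (0.33). For *Krt18* they were *Nrep* (0.36) and *B3gnt5* (0.37), and for *Krt7* *Lcn2*, which encodes lipocalin 2 (0.70), and *Slc10a6* (0.79). For *Krt19* they were *Col14a1*, a collagen gene of fibroblasts (0.70), and *Tnfsf8* (0.79). *Col14a1* was counted 8350 and 13670 times in WT1 and WT2 and 427 to 1076 times in the other 6 libraries, the same high WT1 and WT2 as in *Krt19*.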

How the data were processed

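RNAseq counts of 8 pFB libraries were used, 4 WT and 4 HOMO. The authors trimmed paired reads of poly-A libraries with fastp, aligned them to mm10 with STAR and deposited featureCounts counts per gene, with no normalization. Multi-mapping and strand settings are not given in the sources used here, and neither is the meaning of the word "outlierout" with which the counts are labelled. The table had 0 columns left aside.

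Groups came from the sample labels. Counts were analysed in R 4.3.3 with edgeR 4.0.16: TMM scaling, filterByExpr by genotype, a two-sided quasi-likelihood F test over 14150 genes and Benjamini-Hochberg adjustment over all of them. Each standard error is the size of the log2 fold change over the root of F. A prior count of 2 was used for log2 CPM. Genes outside the test were compared by exact permutation over 70 assignments, which treats near-identical libraries as separate. RPKM uses the union of exon bases in GENCODE M21 (GRCm38), and other keratins are those listed by symbol. Alternatives were DESeq2 1.42.0, limma-voom (limma 3.58.1) with sample weights, other scalings and filters, a replicate block, near-identical libraries summed, and each library left out. Values without HOMO4, the order of levels without WT3 and the search for entries of 1 library were chosen after the counts were seen. The scripts were tested on simulated data.

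The genes and lists were chosen with earlier results of these data known. Named genes were all 10, the DEGs of each list (at most 6), the 3 other keratins with the highest counts, the 2 nearest profiles of each tested gene, and genes that share exons with them. *Wt1os*, *Krt14*, *Krt20*, *Krt88*, the intestinal genes and members of the lists that did not pass were named after their values were seen.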

Additional observations from a re-analysis of the deposited data

Results flagged for a closer look

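A library was called apart from its genotype when its gap to the nearest other library exceeded Dixon's 95% critical value for 4 samples. Of 44 groups looked at, 4 had such a library. Chance gives about 1 in 20 for independent, normally distributed values. The near-identical pairs are not independent, so that rate may not hold here. *Epcam* in HOMO4 stood at 1.23 log2 CPM against −3.49 to −3.07 in the other HOMO libraries. *Epcam* in WT4 stood at −2.97 against −3.49 in the other WT libraries, which is a difference of 1 count from 0. *Podxl* in WT3 stood at −1.41, where WT1, WT2 and WT4 lay between 3.36 and 3.53. *Aldh1a2* in HOMO3 stood at 0.49, where HOMO1, HOMO2 and HOMO4 lay between −2.06 and −1.68. No explanation of these values was tested.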

How the results depend on the processing

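The 1716 DEGs became 2913 in DESeq2, 3573 in limma-voom with sample weights, 947 with a replicate block, 0 with near-identical libraries summed, and 507 to 2192 with each library left out. Upregulated genes of the set of 10 (1, *Wt1*) became 6 in limma-voom (*Wt1*, *Msln*, *Upk3b*, *Upk1b*, *Lrrn4* and *Krt18*), 0 with libraries summed and 0 to 2 with each library left out. Downregulated ones (0) became 1 in DESeq2 and in limma-voom, *Krt19* in each, and 0 to 1 with each library left out. Limma-voom weighted the WT libraries unequally (2.24, 8.14, 0.0927 and 0.164 for WT1 to WT4), with most weight on WT2. The sign turned for *Msln* in limma-voom (log2 fold change 2.56) and the replicate block (1.23), for *Upk1b* (3.76 and 1.10) and for *Krt7* (1.68 and 1.11), and with libraries summed for *Upk3b* (−0.18) and *Lrrn4* (−0.076). It also turned with a library left out, over a range of −0.91 to 1.80 for *Msln*, −0.20 to 0.56 for *Upk3b*, −1.02 to 0.73 for *Upk1b*, −0.12 to 1.43 for *Lrrn4* and −0.79 to 2.48 for *Krt7*. *Wt1* stayed positive throughout (3.90 and adjusted p = 0.0366 with the replicate block in edgeR). The cause was not tested. Of all alternative log2 fold changes of named genes, 197 kept their direction and side of the threshold, 78 were weaker, 7 stronger and 17 reversed. DESeq2 gave no adjusted p for *Msln*.

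Replicate numbers did not pair the libraries: the deviations of same-numbered WT and HOMO libraries correlated at −0.091, −0.042, 0.014 and −0.124, and 0 libraries correlated best with their own number. Depth limits *Krt8* and *Epcam*, which were below 3 counts in several libraries.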
